A study of Homo sapiens with 12 samples.

Results

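The BCL2 family of apoptosis regulators was followed in Ishikawa endometrial cancer cells through 10 genes chosen by name: BMF, BCL2L11, BBC3, PMAIP1, BID, BAX, BAK1, BCL2, BCL2L1 and MCL1. On the Affymetrix U133 Plus 2.0 array, 30 of the 54613 probe sets tested were annotated to exactly 1 of these genes, and they covered 9 of the 10, out of 19775 genes with a probe set of their own. BCL2L11 was read by 7 probe sets, MCL1 by 6, BCL2 and BCL2L1 by 4 each, BID by 3, BAX and PMAIP1 by 2 each, and BMF and BAK1 by 1 each. The array's probe set for BBC3 is also annotated to 2 microRNA genes, so BBC3 was not analysed here. All 30 probe sets were tested with no filter on level. Of these, 21 averaged at least 6 on the log2 scale of the deposited values, and 9 averaged less.

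Ishikawa is an established line, so every group shares 1 genetic background. Cells were transfected for 48 h with an siRNA against GPR54, the product of KISS1R, or with a negative control siRNA, and then held for 24 h with 10 µM metastin-10, a short KISS1 peptide that is the ligand of that receptor, or with a control peptide. The GPR54 siRNA cells (siGPR54) and the negative control siRNA cells (siControl) each gave 3 arrays with metastin-10 and 3 with control peptide, which makes 4 groups. The labels call the 3 biological replicates and do not say that they came from separate cultures, so the p-values measure the spread between these arrays.

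BCL2 family proteins decide at the outer mitochondrial membrane whether a cell enters the intrinsic pathway of apoptosis. The anti-apoptotic members BCL2, BCL2L1 (BCL-XL) and MCL1 hold the pore-forming effectors BAX and BAK1 in check. The BH3-only members BMF, BCL2L11 (BIM), BBC3 (PUMA), PMAIP1 (NOXA) and BID sense damage, growth factor loss or detachment, and bind the anti-apoptotic members or the effectors. Many of them are controlled at the protein level as well, by phosphorylation, cleavage or rapid turnover, which arrays do not read. The values below are log2 levels of mRNA in bulk RNA, in which fewer cells with a transcript and less transcript per cell cannot be told apart.

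The arrays had features that touch the results. KISS1R, the targeted gene, stood at 9.60, 9.42 and 9.28 in the siGPR54 metastin-10 arrays, at 9.46, 9.45 and 9.36 in the siGPR54 control peptide arrays, at 8.43, 8.42 and 8.35 in the siControl metastin-10 arrays, and at 9.39, 9.32 and 9.14 in the siControl control peptide arrays. With control peptide the siGPR54 arrays were not below the siControl arrays (difference 0.14, 95% interval -0.07 to 0.35). This goes against the label, so these are called siGPR54-labelled arrays. The group with low KISS1R was siControl metastin-10, at -0.88 against siControl control peptide (adjusted p = 0.00213 in limma). The names of all groups are those of the labels, and the cause of this layout was not tested. The 4 replicate 3 arrays stood apart from the other 8, with a beta-actin 3 prime minus 5 prime difference of 0.29 to 0.36, against 0.66 to 0.90 in the other 8. Replicates 1 and 2 of the siControl metastin-10 arrays stood apart on the second principal component (42.0 and 29.2, where no other array exceeded 10.9). Of the epithelial markers, 7 of the 8 measured averaged at least 6, with KRT18 at 14.0 and the progesterone receptor gene PGR at 4.38. The same level was reached by 2 of 6 stromal fibroblast markers (COL1A1 highest, at 9.84), 1 of 4 endothelial markers (VWF at 6.97), 1 of 4 smooth muscle markers (ACTA2 at 6.04) and none of the 3 leukocyte markers (CD3E highest, at 5.20).

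Metastin-10 was set against control peptide under siControl, by the labels the comparison of peptide treatment in cells with no siRNA against the receptor. The BH3-only genes BMF and BCL2L11 had the lowest differences of the 9 genes measured, BMF at -0.50 and 3 of 7 BCL2L11 probe sets between -0.44 and -0.34. The other BCL2L11 probe sets ran from -0.30 to 0.19. The BH3-only genes did not move together, since BID lay above 0 at all 3 probe sets (0.05 to 0.21) and PMAIP1 was at -0.08 and -0.02. The effectors and the anti-apoptotic genes had differences between -0.13 and 0.18. No member passed in limma's fit over all probe sets at an adjusted p under 0.05: 0 of 30 probe sets, where 0.428% of all probe sets did. The smallest adjusted p was 0.0792, for BMF. With the replicate number as a block 1 of 30 passed, BMF, where 0.773% of all probe sets did. Without the block, 6 of the 30 had an unadjusted p under 0.05 (5 lower and 1 higher). Of all probe sets 10.6% reached it, 5.98% lower and 4.66% higher. All metastin-10 arrays lay below all control peptide arrays for 5 of the 30 members, where 8.72% of all probe sets did, and above them for 3, where 7.91% did. The 5 are BMF and 4 probe sets of BCL2L11, so they stand for 2 genes. Over the 30 members the median difference was -0.00, with 15 below 0 and 15 above 0, and over all probe sets it was 0.01.

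**Figure D1:**
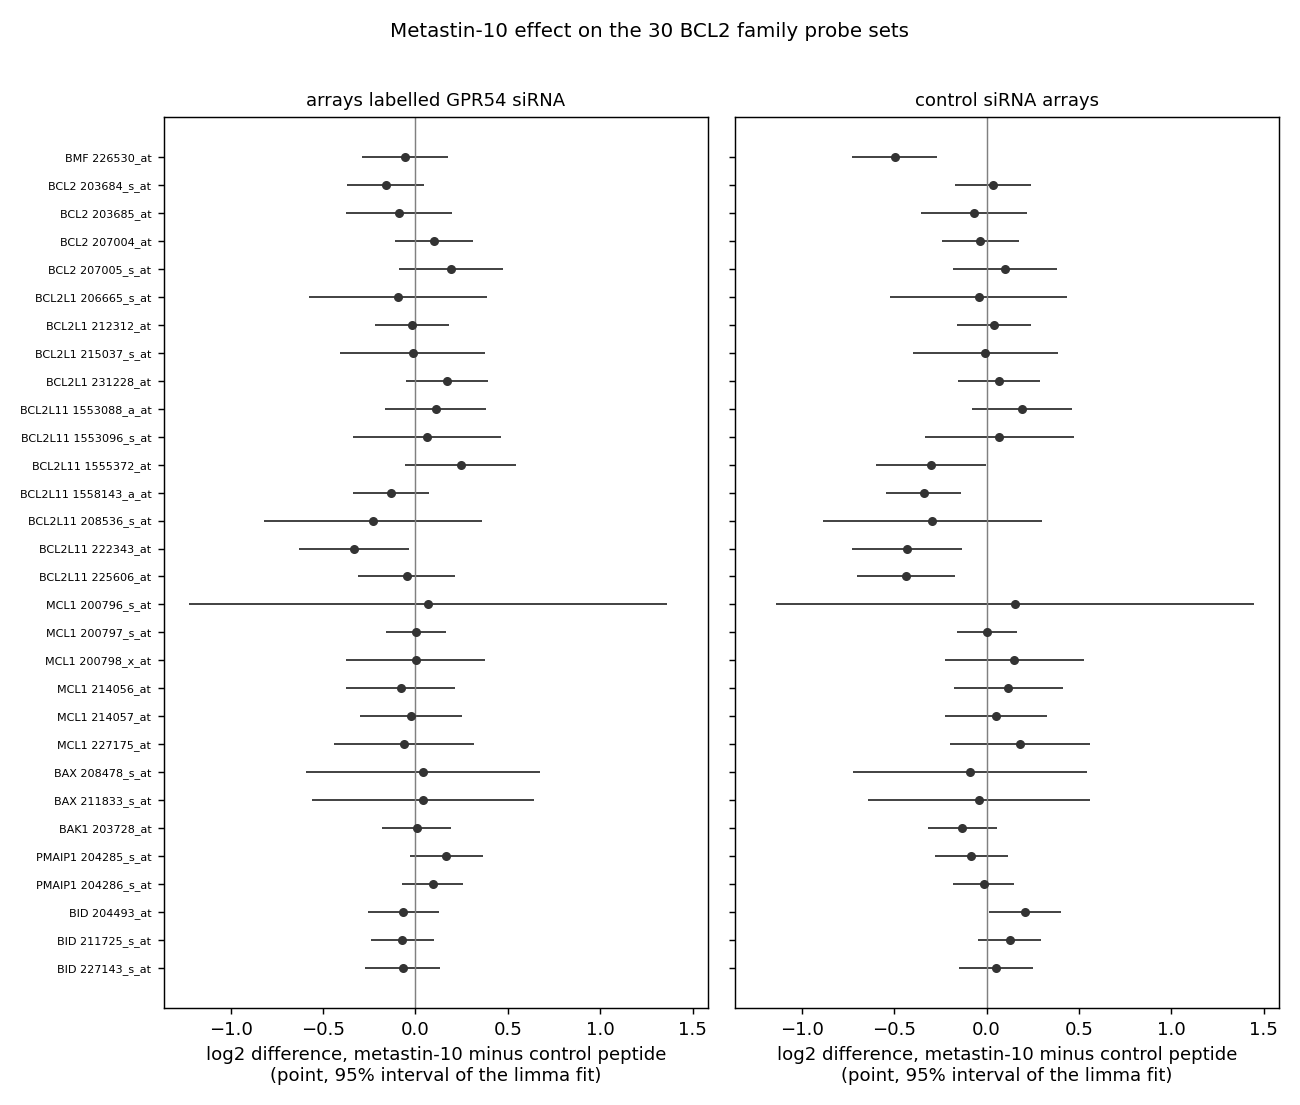
Log2 difference of metastin-10 minus control peptide for the 30 probe sets (point, with its 95% interval from limma), in the siGPR54-labelled arrays (left) and the siControl arrays (right). In the siControl panel BMF sits at -0.50 with an interval that ends at -0.27, and MCL1 200796_s_at has the widest interval of the 30.

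BMF is a BH3-only protein that is held at the cytoskeleton and released when epithelial cells lose attachment. Its probe set 226530_at stood at 6.49, 6.38 and 6.33 in the siControl metastin-10 arrays, against 6.99, 7.00 and 6.69 in the siControl control peptide arrays. The other 2 groups were at 6.91, 6.85 and 6.75 in the siGPR54-labelled metastin-10 arrays, and at 7.04, 6.90 and 6.74 in those with control peptide. All 3 siControl metastin-10 arrays lay below each of the other 9, whose ranges overlapped each other. In order from the lowest, the group means were 6.40 ± 0.08 for the siControl metastin-10 arrays, 6.84 ± 0.08 for the siGPR54-labelled metastin-10 arrays, 6.89 ± 0.15 for the siGPR54-labelled control peptide arrays and 6.90 ± 0.18 for the siControl control peptide arrays (SD, n = 3 each). Under siControl the difference was -0.50 (SE 0.11, 95% interval -0.73 to -0.27), a 1.41-fold lower level with metastin-10, with an unadjusted p of 0.00049 and an adjusted p of 0.0792 in limma over all probe sets. The differences between arrays of the same replicate number were -0.51, -0.62 and -0.36. With the replicate number as a block the adjusted p was 0.0166 and BMF passed, as 1 of the 30 members, where 0.773% of all probe sets passed in that fit. It also passed with a term for replicate 3 (adjusted p = 0.0114), among probe sets with a mean of at least 6 (adjusted p = 0.0326) and with array weights (-0.52, adjusted p = 0.0268). BMF did not pass with only the 2 groups compared, with median centring or with an intensity trend. Over the fits that left out arrays its adjusted p ran from 0.0485 to 0.9999. Without the replicate 3 arrays the difference was -0.56 (adjusted p = 0.0553), without replicate 1 of the siControl metastin-10 arrays it was -0.54 (adjusted p = 0.179), and without replicate 2 of that group it was -0.49 (adjusted p = 0.226).

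**Figure D2:**
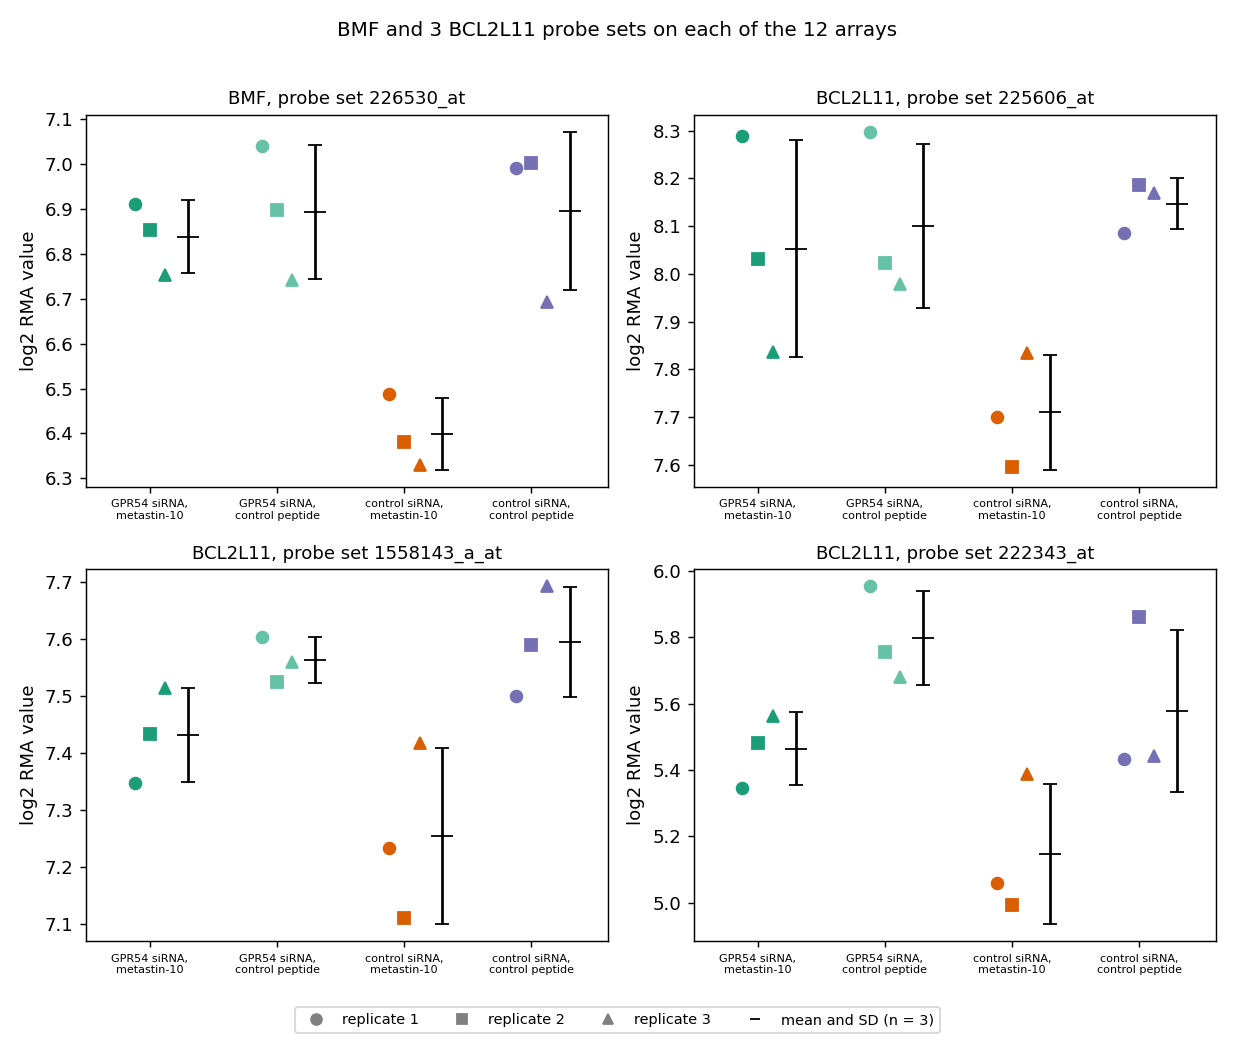
Log2 RMA value of BMF (226530_at) and of 3 BCL2L11 probe sets on each of the 12 arrays, by group and replicate number (marker shape), with the mean and SD of each group (n = 3). For BMF the 3 siControl metastin-10 arrays, at 6.33 to 6.49, lie below the other 9, and BCL2L11 225606_at shows 7.59 to 7.83 in that group against 8.09 to 8.19 in the siControl control peptide arrays.

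BCL2L11 encodes BIM, a BH3-only protein made in several splice forms that binds all of the anti-apoptotic members. Its probe set 225606_at stood at 7.70, 7.59 and 7.83 in the siControl metastin-10 arrays, against 8.09, 8.19 and 8.17 in the siControl control peptide arrays. The 2 groups did not overlap, and the difference was -0.44 (SE 0.12, 95% interval -0.70 to -0.17), 1.35-fold lower, with an adjusted p of 0.199. Probe set 1558143_a_at stood at 7.23, 7.11 and 7.42 with metastin-10, against 7.50, 7.59 and 7.69 with control peptide, a difference of -0.34 (95% interval -0.54 to -0.14, adjusted p = 0.194). Probe set 222343_at, at a low level, stood at 5.06, 4.99 and 5.39 with metastin-10, against 5.43, 5.86 and 5.44 with control peptide, a difference of -0.43 (adjusted p = 0.271). These 3 pairs of groups did not overlap, and neither did those of the dim probe set 1555372_at, whose difference was -0.30 (adjusted p = 0.466). The 7 probe sets of the gene disagreed: 5 had differences below 0, from -0.44 to -0.29, and the other 2 were at 0.07 (1553096_s_at) and 0.19 (1553088_a_at). The groups of 1553088_a_at did not overlap either, at 6.787, 6.749 and 6.612 with metastin-10, against 6.605, 6.459 and 6.507 with control peptide. Which splice forms each probe set reads is not given in the files used here.

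PMAIP1 encodes NOXA, a BH3-only protein and p53 target that binds MCL1, and neither of its probe sets passed. Its probe set 204285_s_at stood at 8.17, 8.34 and 8.44 in the siControl metastin-10 arrays, against 8.37, 8.35 and 8.46 in the siControl control peptide arrays. The groups overlapped, and the difference was -0.08 (95% interval -0.28 to 0.11). The other PMAIP1 probe set differed by -0.02 (95% interval -0.18 to 0.15). BID, which caspase-8 cleaves to link death receptors to mitochondria, lay above 0 at all 3 probe sets. Its 204493_at stood at 8.57, 8.42 and 8.54 with metastin-10, against 8.33, 8.25 and 8.32 with control peptide. The groups did not overlap, but the difference of 0.21 (95% interval 0.01 to 0.40) had an adjusted p of 0.437. BID 211725_s_at differed by 0.13, also without overlap, and 227143_s_at by 0.05.

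The effectors BAX and BAK1, which oligomerise to permeabilise the outer mitochondrial membrane, did not pass either. BAK1 stood at 7.19, 7.45 and 7.37 in the siControl metastin-10 arrays, against 7.47, 7.50 and 7.43 in the siControl control peptide arrays, a difference of -0.13 (95% interval -0.32 to 0.06). BAX 208478_s_at stood at 7.52, 7.32 and 8.38 with metastin-10, against 7.51, 7.63 and 8.35 with control peptide. In each group the replicate 3 array was the high one, and the difference was -0.09. BAX 211833_s_at had the same layout and differed by -0.04. Without the replicate 3 arrays these differences were -0.15 and -0.05. With the replicate number as a block their 95% intervals ran from -0.32 to 0.14 and from -0.29 to 0.21.

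Among the anti-apoptotic genes the differences were small against their intervals. The 6 probe sets of MCL1, a short-lived protein that binds BIM, NOXA and BAK1, had differences from 0.00 to 0.18, all above 0 and none past the threshold. MCL1 200797_s_at varied least of the 30, from 10.54 to 10.72 over the 12 arrays, and differed by 0.00. MCL1 200796_s_at stood at 6.29, 6.34 and 7.93 in the siControl metastin-10 arrays, against 6.15, 6.21 and 7.72 in the siControl control peptide arrays. The difference was 0.16, and 0.13 without the replicate 3 arrays. The 4 probe sets of BCL2 differed by -0.07 to 0.10, and the 4 of BCL2L1, which encodes BCL-XL, by -0.04 to 0.07. For BCL2L1 212312_at the difference was 0.04 with a 95% interval of -0.16 to 0.24. Half-widths of the 95% intervals, without the block, had a median of 0.27 over the 30 members and ranged from 0.16 to 1.29. The widest was that of MCL1 200796_s_at, whose interval with the replicate number as a block ran from -0.03 to 0.34.

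The promoters of BMF and BCL2L11, which had the lowest differences of the members, are shown beside those of BAX, which held the most matches of the members, and of BNIP3, a family relative known to be induced by hypoxia. The promoter of BNIP3L, a relative whose peptide difference under siControl was -0.71, was left out of those shown. The matches of BNIP3 therefore do not stand for both relatives. The letters searched were the core motif of hypoxia-inducible factors. Each sequence is the 250 bases before an annotated start in RefSeq (GRCh38.p14), 5′ to 3′ on the gene's strand. Capitals mark ACGTG or GCGTG on either strand, and a CACGTG counts as 2 matches.
BMF, first window, chr15:40106967-40107216, minus strand: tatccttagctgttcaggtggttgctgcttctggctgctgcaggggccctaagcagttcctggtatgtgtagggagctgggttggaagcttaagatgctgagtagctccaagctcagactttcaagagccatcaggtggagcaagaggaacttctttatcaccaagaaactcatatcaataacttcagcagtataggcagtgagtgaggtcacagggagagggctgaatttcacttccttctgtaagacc
BMF, the other window, chr15:40108880-40109129, minus strand: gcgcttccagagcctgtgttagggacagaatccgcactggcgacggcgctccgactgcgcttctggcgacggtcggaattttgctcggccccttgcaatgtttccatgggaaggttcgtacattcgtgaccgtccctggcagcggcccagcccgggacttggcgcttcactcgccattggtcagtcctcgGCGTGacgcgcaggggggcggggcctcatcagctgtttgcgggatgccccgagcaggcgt
BCL2L11, chr2:111120664-111120913, plus strand: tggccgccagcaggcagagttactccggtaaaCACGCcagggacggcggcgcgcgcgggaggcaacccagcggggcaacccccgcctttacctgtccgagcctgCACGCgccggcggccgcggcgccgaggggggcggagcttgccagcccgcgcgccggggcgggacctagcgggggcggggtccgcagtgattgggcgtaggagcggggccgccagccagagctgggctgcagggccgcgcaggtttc
BAX, chr19:48954625-48954874, plus strand: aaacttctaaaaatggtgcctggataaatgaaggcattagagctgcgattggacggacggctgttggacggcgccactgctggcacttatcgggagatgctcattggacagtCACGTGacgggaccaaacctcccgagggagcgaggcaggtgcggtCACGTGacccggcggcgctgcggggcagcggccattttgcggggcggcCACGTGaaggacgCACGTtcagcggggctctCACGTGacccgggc
BNIP3, chr10:131981924-131982173, minus strand: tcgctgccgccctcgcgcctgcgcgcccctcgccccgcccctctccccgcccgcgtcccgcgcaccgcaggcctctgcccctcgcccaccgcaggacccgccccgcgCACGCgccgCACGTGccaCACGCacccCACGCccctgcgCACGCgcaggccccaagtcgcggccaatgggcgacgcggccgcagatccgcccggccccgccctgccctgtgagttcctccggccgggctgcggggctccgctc
The first BMF window held 0 matches and the other held 1, BCL2L11 held 2, BAX held 9, in which 4 CACGTG take part, and BNIP3 held 6. Of 35116 windows of the same length, 43.2% held at least 1 match and 0.646% held 6 or more. The table held 15 windows for 9 of the 10 listed genes (all but MCL1), and 10 of the 15 (66.7%) held a match. Windows of alternative BID starts overlap each other, so the same letters can count more than once. The 66.7% is a description and was not tested against the share of all windows. A match describes these letters only, and its share in any level was not tested.

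Metastin-10 was also set against control peptide in the siGPR54-labelled arrays, where the same peptide met cells given the other siRNA. No member passed (0 of 30, where 0% of all probe sets did), and 1 of 30 had an unadjusted p under 0.05, where 2.21% of all did. The 2 peptide groups lay apart with metastin-10 lower for 2 members, where 2.57% of all probe sets did, and higher for 1, where 3.01% did. The 2 lower ones are BCL2L11 222343_at and 1558143_a_at, so they stand for 1 gene. Probe set 1558143_a_at differed by -0.13 (95% interval -0.335 to 0.073). BMF differed by -0.05 (95% interval -0.29 to 0.18), and the arrays listed above overlap. BCL2L11 225606_at stood at 8.29, 8.03 and 7.84 with metastin-10, against 8.30, 8.02 and 7.98 with control peptide, a difference of -0.05 (95% interval -0.31 to 0.22). The member with the smallest p was BCL2L11 222343_at, at 5.35, 5.48 and 5.56 with metastin-10, against 5.95, 5.76 and 5.68 with control peptide. Its difference was -0.33 (95% interval -0.63 to -0.04, unadjusted p = 0.0311, adjusted p = 1 in limma). PMAIP1 204285_s_at differed by 0.17 (95% interval -0.03 to 0.36) and the 3 BID probe sets by -0.07 each. The 30 differences ran from -0.33 to 0.25 with a median of -0.02, and the median over all probe sets was -0.00.

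The interaction compares those peptide effects directly, as the metastin-10 difference in the siGPR54-labelled arrays minus that under siControl. For BMF it was 0.44 (95% interval 0.12 to 0.77), with an unadjusted p of 0.0121 and an adjusted p of 0.611 in limma. For BCL2L11 225606_at it was 0.39 (95% interval 0.02 to 0.76, adjusted p = 0.79). It was also above 0 for the dim BCL2L11 1555372_at, at 0.55 (adjusted p = 0.636), and was lowest for BID 204493_at, at -0.27 (adjusted p = 0.82). No member passed (0 of 30, where 0.0513% of all probe sets did), and 3 of 30 had an unadjusted p under 0.05, where 6.09% of all did. An effect of metastin-10 on BMF that depends on the siRNA label was not shown by this test.

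The siGPR54 label was set against siControl with each peptide. These comparisons share arrays with the peptide comparisons above, so their values are not separate evidence on BMF or BCL2L11. With control peptide no member passed (0 of 30, where 0.0531% of all probe sets did), and 1 of 30 had an unadjusted p under 0.05, where 4.25% of all did. BMF differed by -0.00 (95% interval -0.23 to 0.23) and BCL2L11 225606_at by -0.05. The largest difference was that of BCL2L11 1555372_at, whose 12-array mean was 4.92. It stood at 4.77, 4.76 and 4.32 in the siGPR54-labelled control peptide arrays, against 5.15, 5.49 and 5.15 in the siControl control peptide arrays. The groups did not overlap and the difference was -0.65 (95% interval -0.94 to -0.35), with an adjusted p of 0.188, and no other BCL2L11 probe set had an unadjusted p under 0.05 here. Groups lay apart for that 1 member as lower, where 4.56% of all probe sets did, and for 1 as higher, where 5.20% did. The median difference over all 30 was -0.01.

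With metastin-10 in both groups, no member passed between the siRNA labels (0 of 30, where 0.579% of all probe sets did), and 5 of 30 had an unadjusted p under 0.05, where 10.1% of all did. The 5 were BMF, BCL2L11 225606_at and 222343_at and PMAIP1 204285_s_at, which were higher in the siGPR54-labelled arrays (4, where 5.94% of all probe sets were), and BCL2 203684_s_at, which was lower (1, where 4.16% were). BMF differed by 0.44 (95% interval 0.21 to 0.67), 1.36-fold higher in the siGPR54-labelled arrays, with an adjusted p of 0.116. It passed with a term for replicate 3 (adjusted p = 0.0172), among probe sets with a mean of at least 6 (adjusted p = 0.0404) and with array weights (0.45, adjusted p = 0.0154). BMF did not pass with only the 2 groups compared, with median centring or with an intensity trend. No fit that left out arrays passed for BMF (adjusted p from 0.071 to 0.9999). For BCL2L11 225606_at the difference was 0.34 (95% interval 0.08 to 0.61, adjusted p = 0.346). PMAIP1 204285_s_at stood at 8.67, 8.48 and 8.45 in the siGPR54-labelled arrays, against 8.17, 8.34 and 8.44 in siControl, and differed by 0.22 (adjusted p = 0.432). BCL2 203684_s_at, a dim probe set, stood at 4.85, 5.05 and 4.96 in the siGPR54-labelled arrays, against 5.21, 5.19 and 5.17 in siControl, a difference of -0.23 (adjusted p = 0.424). The groups lay apart for 3 members that were higher, where 7.76% of all probe sets were, and for 2 that were lower, where 5.91% were.

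**Figure D3:**
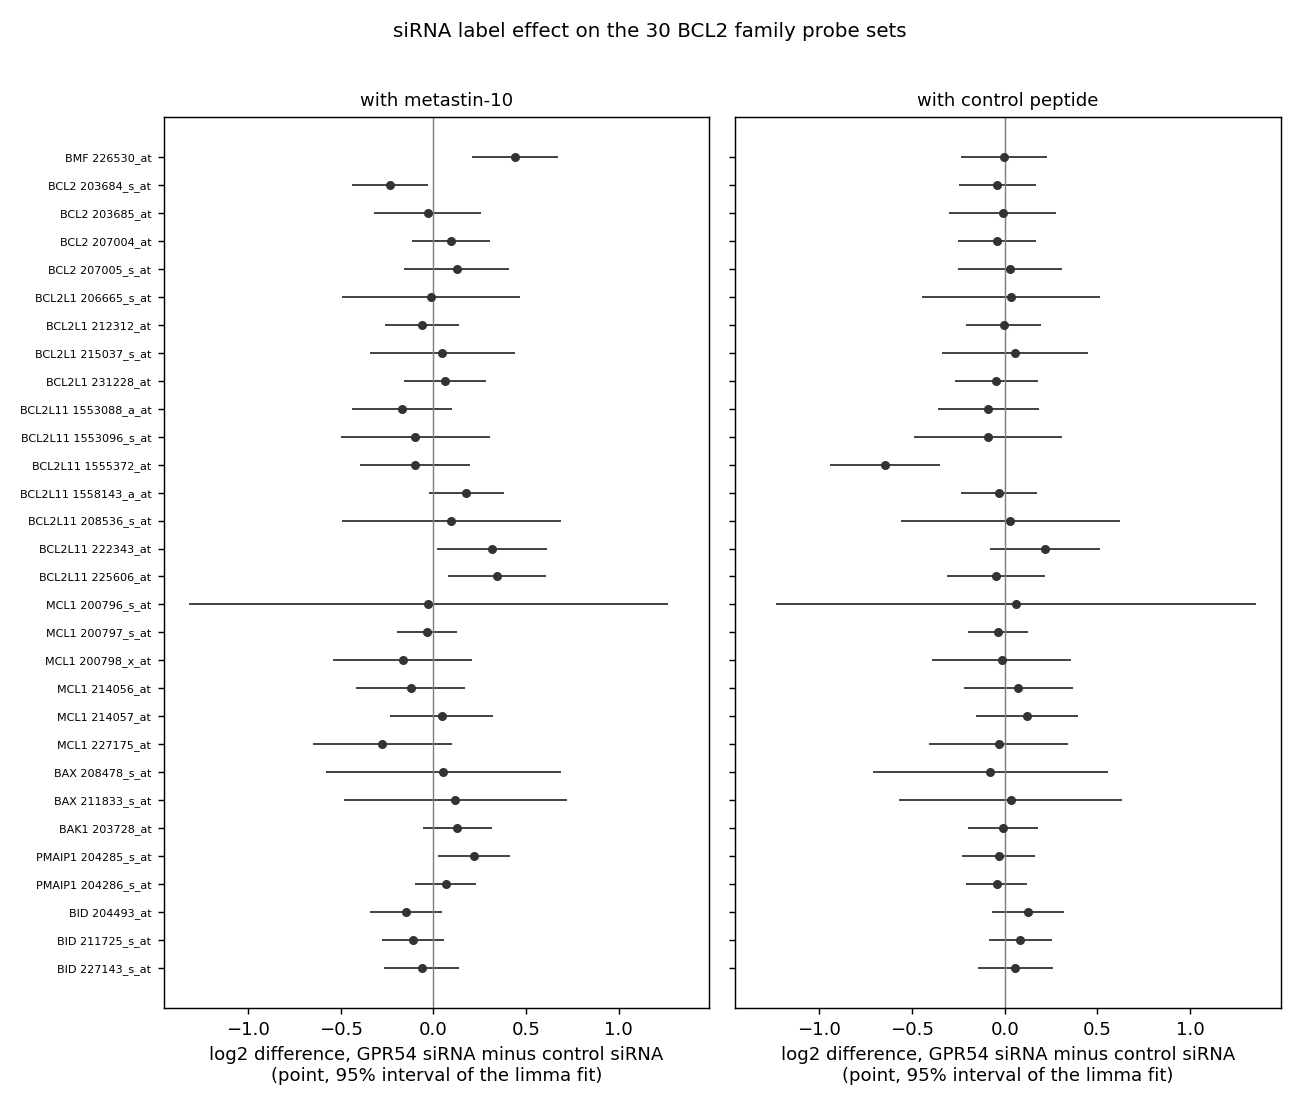
Log2 difference of the siGPR54-labelled arrays minus siControl for the 30 probe sets (point, with its 95% interval from limma), with metastin-10 (left) and with control peptide (right). BMF lies at 0.44 with metastin-10 and at -0.00 with control peptide, and BCL2L11 1555372_at lies at -0.65 with control peptide.

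Some members followed the replicate number more than the groups, which is given as a description. On the 4 replicate 3 arrays MCL1 200796_s_at read 7.72 to 7.93, against 6.10 to 6.35 on the other 8 arrays. The other probe sets of the gene overlapped between those arrays. The replicate 3 means were higher by 0.37 for 200798_x_at and by 0.35 for 227175_at. For 200797_s_at, 214056_at and 214057_at they differed by 0.03, -0.06 and -0.09. BAX read 8.12 to 8.38 at 208478_s_at and 8.47 to 8.62 at 211833_s_at on the replicate 3 arrays, against 7.32 to 7.66 and 7.66 to 8.05 on the others. BCL2L1 215037_s_at read 6.77 to 6.92 on the replicate 3 arrays, against 6.25 to 6.56. In all, 4 of the 30 members lay higher on all replicate 3 arrays than on every other array, where 4.20% of all probe sets did, and 1 (BCL2 203685_at) lay lower, where 3.61% did. The beta-actin 3 prime minus 5 prime difference moved with the same arrays, and its part in these levels was not tested.

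**Figure D4:**
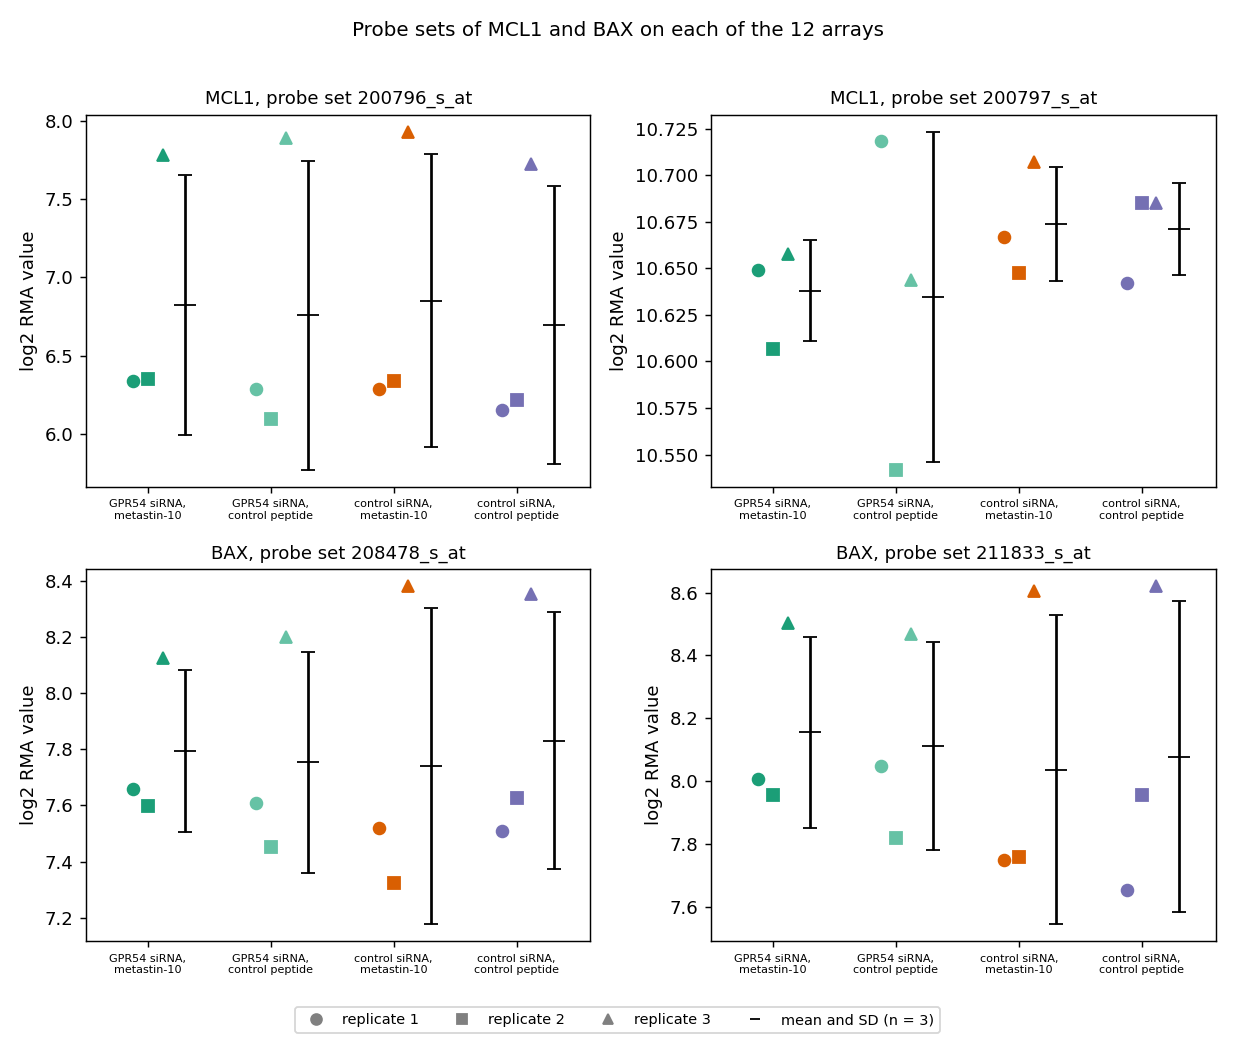
Log2 RMA value of 2 MCL1 and 2 BAX probe sets on each of the 12 arrays, by group and replicate number (marker shape), with the mean and SD of each group (n = 3), each panel on its own axis range. The replicate 3 arrays of all 4 groups are the highest for MCL1 200796_s_at and for both BAX probe sets, while MCL1 200797_s_at spans only 10.54 to 10.72.

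The rest of the intrinsic and extrinsic pathways was read through the brightest probe set of each gene. Of 13 other BCL2 family genes, 2 fell with metastin-10 under siControl, where 0.607% of all 19775 genes were called, and both are BNIP3-type proteins of mitochondria that are better known for mitophagy than for apoptosis. BNIP3 stood at 11.64, 11.78 and 11.73 in the siControl metastin-10 arrays, against 12.44, 12.32 and 12.39 in the siControl control peptide arrays, without overlap. It fell by 0.66 on the log2 scale, 1.58-fold (95% interval -0.84 to -0.49, adjusted p = 0.00308). BNIP3L stood at 10.61, 10.78 and 10.80 with metastin-10, against 11.42, 11.45 and 11.43 with control peptide, and fell by 0.71, 1.63-fold (adjusted p = 0.00213). A further probe set of each gene also passed, at -0.83 for BNIP3 and -0.61 for BNIP3L. In the siGPR54-labelled arrays the peptide differences were 0.08 for BNIP3 and 0.01 for BNIP3L, and the interaction was past the threshold for both, at 0.75 (adjusted p = 0.043) and 0.72 (adjusted p = 0.04996), where 0.106% of all genes passed. Leaving out any array or replicate number ended both interaction calls (adjusted p from 0.0516 to 1), and leaving out replicate number 1 or 2 in all groups ended the calls of the peptide effect (-0.60 and -0.73 for BNIP3, adjusted p = 0.256 and 0.493). With metastin-10 in both groups, the same genes rose in the siGPR54-labelled arrays, by 0.86 and 0.79, where 1.04% of all genes were called, and both calls ended without replicate number 1 (0.82 and 0.72, adjusted p = 0.0805 and 0.132) or 2 (0.89 and 0.78, adjusted p = 0.164 and 0.258). The median peptide difference of the 13 genes under siControl was -0.06, and that of all genes was 0.01.

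None of the 13 measured genes of the apoptosome, caspases and their inhibitors passed in any of the 5 comparisons, and their median peptide difference under siControl was -0.05. Those with the smallest p were ENDOG, a mitochondrial nuclease (0.26 between the siRNA labels with metastin-10, adjusted p = 0.211), and CASP9, the initiator caspase of the apoptosome (0.24, adjusted p = 0.379). None of the 10 measured genes of the death receptor arm passed in any comparison, with a median of -0.05 under siControl. There the smallest p belonged to the adaptor TRADD (0.22 between the siRNA labels with control peptide, adjusted p = 0.9998) and to the TRAIL receptor TNFRSF10A (0.22 for the peptide under siControl, adjusted p = 0.486). Of 14 measured regulators and partners of the family, 0 passed for the peptide under siControl, with a median of -0.14. With metastin-10 in both groups, 2 of the 14 rose in the siGPR54-labelled arrays, where 1.04% of all genes were called. CDKN1A, the p53 target that encodes the cell cycle inhibitor p21, stood at 8.45, 8.62 and 8.53 there, against 8.07, 7.88 and 7.93 in siControl, and rose by 0.58 (adjusted p = 0.00577). DDIT3, which encodes the stress factor CHOP that can induce BIM, stood at 8.84, 8.66 and 8.78, against 8.25, 8.23 and 8.40 in siControl, and rose by 0.47 (adjusted p = 0.0398). CDKN1A no longer passed without replicate number 1, 2 or 3 (0.67, 0.49 and 0.56, adjusted p = 0.157, 0.703 and 0.0555), and DDIT3 passed in 3 of 15 fits that left out an array or a replicate number (0.41 to 0.52). For the peptide under siControl, CDKN1A differed by -0.40 (adjusted p = 0.0643) and DDIT3 by -0.31 (adjusted p = 0.216). That CDKN1A difference passed with a term for replicate 3 (adjusted p = 0.0366), with a mean of at least 6 (0.0144), with array weights (0.0294) and with an intensity trend (0.033), and in none of the 15 fits that left out an array or a replicate number.

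**Figure D5:**
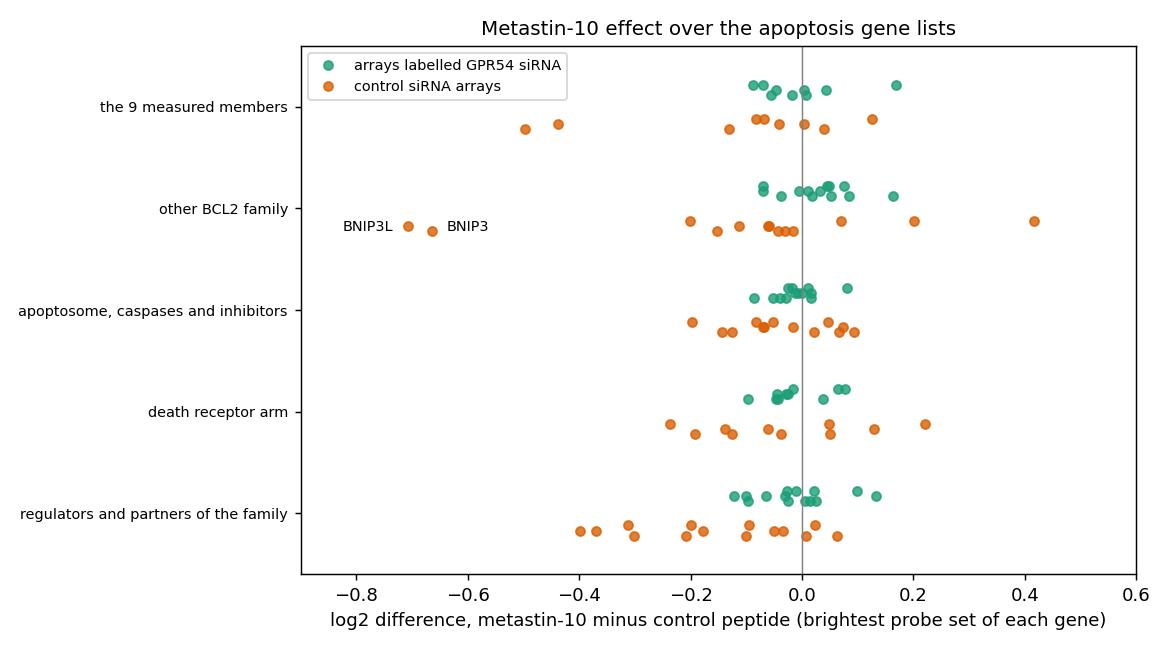
Log2 difference of metastin-10 minus control peptide for each measured gene of the BCL2 family members and 4 other apoptosis lists (brightest probe set of each gene), in the siGPR54-labelled arrays (green, upper row of each list) and the siControl arrays (orange, lower row). BNIP3L and BNIP3 lie farthest left at -0.71 and -0.66 under siControl, and the other 11 genes of their list lie between -0.20 and 0.42.

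In the comparison where BMF and BCL2L11 were the lowest members, the peptides under siControl, 3 of the 4 lists of markers for other cell types did not overlap between the groups. The mean level of the 4 smooth muscle markers was 5.63 to 5.68 over the metastin-10 arrays, against 5.47 to 5.56 over the control peptide arrays. For the 4 endothelial markers it was 4.82 to 4.97, against 4.73 to 4.81, and for the 3 leukocyte markers 4.30 to 4.46, against 4.18 to 4.26. The 6 stromal markers overlapped, at 5.37 to 5.50 against 5.38 to 5.51. No single marker of these 4 lists passed at its brightest probe set. Of all probe sets, 7.91% lay higher without overlap in this comparison, and no such share was computed for list means. The 8 epithelial markers were at 10.80 to 10.91 with metastin-10, against 10.99 to 11.03, and 1 of them, KRT19, fell by 0.48 (adjusted p = 0.009). Among the markers of the other cell types the 12-array means ran from 2.56 (LUM) to 9.84 (COL1A1) for stromal fibroblasts, from 3.05 (KDR) to 6.97 (VWF) for endothelium, from 4.79 (CNN1) to 6.04 (ACTA2) for smooth muscle and from 3.48 (PTPRC) to 5.20 (CD3E) for leukocytes. The part of these shifts in the members' differences was not tested.

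Genes with a pattern like that of BMF were ranked by Pearson's r over the 12 arrays among 10793 genes whose mean was at least 6. All points share the same arrays, groups and replicate numbers, so r is a description. The 5 most alike were PCK2 (0.97), the mitochondrial phosphoenolpyruvate carboxykinase, COL5A2 (0.97), a fibrillar collagen chain, TMEM260 (0.96), ST6GALNAC2 (0.96), a sialyltransferase, and BRWD1 (0.96). Under siControl their metastin-10 differences ran from -0.88 for COL5A2 to -0.17 for TMEM260. The most opposed were the proteasome subunit gene PSMA4 (-0.97), the kinase gene VRK1 (-0.96) and the annexin gene ANXA3 (-0.93). Among the members, r with BMF was highest for BCL2L11 225606_at (0.83) and 222343_at (0.73), and lowest for MCL1 227175_at (-0.71) and 200798_x_at (-0.67). The probe sets of BCL2L11 disagreed here too, and its others ran from -0.66 (1553088_a_at) to 0.60 (1558143_a_at).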

How the data were processed

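Total RNA was hybridised to Affymetrix U133 Plus 2.0 arrays, 3 for each of 4 groups set from the sample labels, which name 3 biological replicates in each. The log2 values deposited by the authors came from RMA, per the submitters' processing notes, and the RMA version is not given in the sources used here. RMA corrects background, brings all arrays to 1 distribution and summarises the probes of a set, so a shift of most genes in 1 direction would be hidden. Detection calls were not used, so the background level is unknown and differences of dim probe sets may be compressed. The number of arrays limits the precision.

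Of 54675 probe sets, 62 controls were left out and 54613 were tested. Models were fitted in R 4.3.3 with limma 3.58.1 and empirical Bayes, with a mean for each of the 4 groups (12 arrays, 8 residual degrees of freedom). Tests were two-sided, with Benjamini-Hochberg adjustment over the probe sets of a comparison and a threshold of 0.05, and each adjusted p is limma's. Probe sets were named from the platform annotation (41091 had 1 gene), with symbols checked by Entrez identifier against RefSeq of GRCh38.p14. In the other lists a gene was read by its brightest probe set, judged by the 12-array mean. The limma script was tested on simulated data.

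The members, the other lists, the promoter motif and the rule for named genes were chosen with earlier results of these data known. The rule takes every member probe set, KISS1R, up to 4 genes of each other list past the threshold or else the 2 with the smallest p, and the 5 genes most and 3 least like the member with the smallest p. Arrays correlated between 0.992 and 0.998, and no 2 were copies. Whether replicate numbers are shared between groups is not in the labels. Same-numbered arrays deviated together from their group means (r over 0.1 in all 3 pairs) between the peptides under siControl (0.17 to 0.44) and siGPR54 (0.26 to 0.52). They also did so between siGPR54 and siControl in cells without metastin-10 (0.11 to 0.54). The fit with a mean for each of the 4 groups had no term for the replicate number. Its intervals and p-values therefore did not use this pairing, which entered as a replicate block in an alternative fit only. Alternatives were a replicate block, a term for replicate 3, leaving out arrays, only the 2 groups compared, a mean of at least 6, array weights, median centring and an intensity trend.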

Additional observations from a re-analysis of the deposited data

Results flagged for a closer look

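The metastin-10 effect differed between the siRNA labels for 3 of the genes named, by the interaction test in limma, where 0.106% of all genes passed. BNIP3 and BNIP3L were named because they passed in a comparison, and KISS1R as the targeted gene. The share of all genes is therefore no measure of enrichment among the genes named. The interaction was 0.75 for BNIP3 (adjusted p = 0.043), 0.72 for BNIP3L (adjusted p = 0.04996) and 0.89 for KISS1R (adjusted p = 0.04996). Under siControl the metastin-10 differences were -0.66, -0.71 and -0.88 in that order of genes. Median centring of each array left the interactions at 0.77, 0.74 and 0.91 with adjusted p of 0.0515, 0.0908 and 0.0718. Without an array or a replicate number, BNIP3 and BNIP3L passed in 0 of 15 fits (adjusted p from 0.0516 to 1) and KISS1R in 1 of 15 (adjusted p from 0.0369 to 1). None of the 30 BCL2 family probe sets had an adjusted p under the threshold for the interaction.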

How the results depend on the processing

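Between the peptides under siControl, 0 of 30 members passed in limma's fit, and 1 passed with a replicate block, with a term for replicate 3, among probe sets with a mean of at least 6 and with array weights. Each time it was BMF, with adjusted p of 0.0166, 0.0114, 0.0326 and 0.0268. Leaving out arrays gave 0 to 1, the 1 being BMF without replicate 3 of the siControl control peptide group (-0.60, adjusted p = 0.0485), and BMF stayed below 0 in all 22 alternatives, at -0.60 to -0.44 over those that left out arrays (adjusted p 0.0485 to 0.9999). For the siRNA labels with metastin-10, 1 member (BMF) passed with a replicate block (adjusted p = 0.0223), with a term for replicate 3 and with a mean of at least 6, and 2 (BMF and BCL2L11 225606_at, 0.38, adjusted p = 0.044) with array weights. Same-numbered arrays of that comparison correlated from -0.15 to 0.26, so the block there rests on the number alone. The replicate block changed no other call of a member. Among the other lists, TRIB3 (0.38, adjusted p = 0.0905) passed there with the block (adjusted p = 0.043), the replicate 3 term (0.0463), a mean of at least 6 (0.0211), array weights (0.0115) and an intensity trend (0.0272). CDKN1A and DDIT3 no longer passed there with only the 2 groups compared (adjusted p = 0.12 and 0.229), and the interaction of CDKN1A passed with array weights (0.61, adjusted p = 0.0284). Leaving out arrays gave 0 members in the other 4 comparisons, and the remaining alternatives gave 0.

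Counts over all probe sets moved more. For metastin-10 under siControl 234 passed, against 422 with the block, 532 with the replicate 3 term, 77 with only the 2 groups, 495 with array weights, 368 with an intensity trend, 364 with a mean of at least 6 and 0 to 263 without arrays. For the siRNA labels with metastin-10 316 passed, against 504, 602, 57, 2016, 480, 622 and 3 to 396 under the same alternatives. For the siRNA labels with control peptide 29 passed, against 51, 87, 9, 130, 34, 4 and 0 to 44. For the interaction 28 passed, against 45 with the block, 73 with the replicate 3 term, 250 with array weights, 77 with an intensity trend, 62 with a mean of at least 6 and 0 to 32 without arrays. For metastin-10 in the siGPR54-labelled arrays 0 passed under each of them. The causes of these moves were not tested. Dim probe sets limit what can be said, since 9 of the 30 averaged under 6.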
